A study of Mus musculus with 16 samples.

Results

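The Hox genes are the 39 protein-coding genes whose symbol is Hoxa, Hoxb, Hoxc or Hoxd followed by a number, chosen by that symbol alone from 55266 annotated genes. In the mouse genome build GRCm39 they formed 4 clusters, with 11 genes in the A cluster (chromosome 6), 10 in the B cluster (chromosome 11), 9 in the C cluster (chromosome 15) and 9 in the D cluster (chromosome 2). RNA had been measured in frontal cortex (FC) and cerebellum (Cere) of adult Upf3b-null mice (Upf3b-KO) and of their Ctrl littermates, to find RNAs that depend on UPF3B, a factor of nonsense-mediated RNA decay. Each of the 4 groups held 4 libraries. Both regions were taken from 4 mice of each genotype, but the labels do not tie a library of one region to a library of the other. No strain, sex or exact age was given, and tissue was whole dissected region rather than sorted cells. In bulk tissue, fewer cells of a type and less RNA per cell cannot be told apart.

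Hox genes encode homeodomain transcription factors that give cells an identity along the head-to-tail axis. Genes at the same place in different clusters form paralog groups. Low-numbered groups are switched on early and reach furthest forward into the hindbrain, while high-numbered groups are used in the trunk and tail. The forebrain and midbrain lack Hox expression, and so does the front-most hindbrain segment, from which the cerebellum arises, whereas neurons of the medulla and spinal cord behind it keep a Hox code into adult life. These genes are therefore used as marks of position along the axis. Whether their levels in these samples reflect position was not tested.

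The stretches of DNA before a RefSeq transcript start of 5 of the genes are shown because these genes are spread over 3 clusters and over the range of paralog groups, 4 that rose in Upf3b-KO cerebellum and 1 with no count in any library. RefSeq promoter windows (from a table of build GRCm38.p6) were present for 22 of the 39 genes, and the last 120 bases before the annotated start were placed on GRCm39 by exact match. None of the 5 stretches touches an annotated exon. Those of Hoxa2, Hoxa5, Hoxa13 and Hoxb4 lie upstream of the gene, while that of Hoxd4 lies before an inner start, in an intron of a longer annotated transcript (the gene spans 74542273 to 74559523). Hoxa2 lies on the minus strand at chr6:52141812-52141931, Hoxa5 on the minus strand at chr6:52181568-52181687, Hoxa13 on the minus strand at chr6:52237866-52237985, Hoxb4 on the plus strand at chr11:96208973-96209092 and Hoxd4 on the plus strand at chr2:74552202-74552321. The sequences read 5′ to 3′ toward the gene, and capitals mark CG dinucleotides, the sites at which DNA is methylated.
Hoxa2: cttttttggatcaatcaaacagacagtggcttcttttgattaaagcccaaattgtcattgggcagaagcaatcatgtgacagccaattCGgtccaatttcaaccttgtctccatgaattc
Hoxa5: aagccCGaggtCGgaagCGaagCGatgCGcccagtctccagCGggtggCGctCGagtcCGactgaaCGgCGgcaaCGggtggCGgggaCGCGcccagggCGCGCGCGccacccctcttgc
Hoxb4: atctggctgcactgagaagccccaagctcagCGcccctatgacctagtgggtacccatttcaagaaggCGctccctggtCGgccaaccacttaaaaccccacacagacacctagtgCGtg
Hoxd4: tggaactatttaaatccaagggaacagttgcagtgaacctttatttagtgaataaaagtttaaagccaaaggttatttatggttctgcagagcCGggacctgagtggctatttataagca
Hoxa13: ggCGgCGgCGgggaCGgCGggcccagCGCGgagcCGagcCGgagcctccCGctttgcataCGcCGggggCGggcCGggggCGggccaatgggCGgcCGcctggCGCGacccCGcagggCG

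These stretches differed widely in CG content, with 1 CG in Hoxa2 and in Hoxd4, 4 in Hoxb4, 19 in Hoxa5 and 21 in Hoxa13. Over the 250 bases before the start, the 24 Hox windows held a median of 12.5 CG, from 2 to 35, and all 32851 windows in the table a median of 6. The 11 windows of genes with 10 or more counts in Upf3b-KO cerebellum had a median of 12 CG and the other 13 a median of 13. The letters TGATTNAT, bound by Hox proteins together with their partner Pbx, were searched on both strands and stood in 2 of the 24 Hox windows (Hoxa2 and 1 window of Hoxd11) and in 2.82% of all windows. The letters AGGTCA, a half-site for retinoic acid receptors, stood in 6 of the 24 and in 14.0% of all windows, and the TATA box letters TATAAA in 4 of the 24 and in 12.4%. A match of letters is not a bound site.

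The 15 libraries used here held 27660078 to 35238677 counts, so that 3 counts, taken as the floor of detection, were 0.085 to 0.108 CPM (counts scaled to the library total). The remaining library, Upf3b-KO cerebellum 1, held 64981 counts, entered no comparison here and is described on its own at the end. Upf3b itself (chromosome X, 36355174 to 36374019) had 20.9 to 23.6 CPM in Ctrl cerebellum and 0.617 to 0.965 CPM in Upf3b-KO cerebellum, and 14.2 to 15.7 CPM in Ctrl frontal cortex and 0.229 to 0.857 CPM in Upf3b-KO frontal cortex, as the labels state. The summed level of the forebrain markers was 422.5 to 439.3 CPM in Ctrl and 361 to 369.6 CPM in Upf3b-KO frontal cortex and 7.64 to 12.8 CPM in cerebellum, and cerebellar markers such as Gabra6 and Pcp2 were high in cerebellum of both genotypes.

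Hox RNA was lowest in the Ctrl groups, low in Upf3b-KO frontal cortex and by far highest in Upf3b-KO cerebellum. Summed over the 39 genes, it was 0.252 ± 0.244 CPM in Ctrl frontal cortex, 1.95 ± 0.396 CPM in Upf3b-KO frontal cortex and 0.447 ± 0.213 CPM in Ctrl cerebellum (SD, n = 4 each), and 94.2 ± 4.28 CPM in Upf3b-KO cerebellum (SD, n = 3). The sums were 89.6 to 98.1 CPM in the 3 Upf3b-KO cerebellar libraries and 0.294 to 0.759 CPM in the 4 Ctrl ones, so the groups did not overlap. At least 1 count in any library of the group was found for 7 members in Ctrl frontal cortex, 17 in Upf3b-KO frontal cortex, 13 in Ctrl cerebellum and 28 in Upf3b-KO cerebellum. Members with 10 or more counts over the group numbered 1, 3, 2 and 20, and 9 members had no count in any library.

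**Figure D1:**
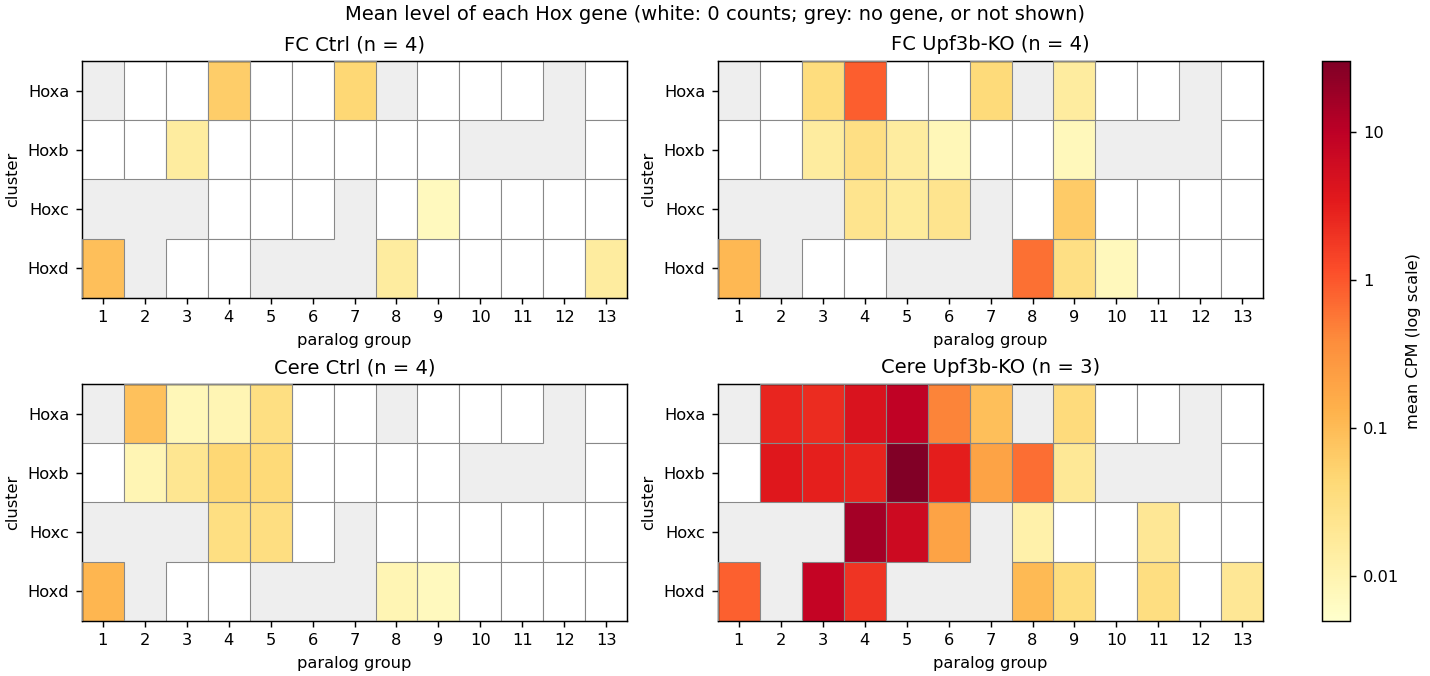
Mean CPM (colour, log scale) of each Hox gene in the 4 groups, with the 4 clusters as rows and the 13 paralog groups as columns. White cells had 0 counts and grey cells have no gene in the mouse or are not shown. Colour is dense over groups 1 to 6 in Upf3b-KO cerebellum, where the summed level was 94.2 CPM, and 2 cells, Hoxa4 and Hoxd8, stand out in Upf3b-KO frontal cortex.

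In the comparison of Upf3b-KO with Ctrl cerebellum, 16 of the 39 Hox genes rose and none fell in edgeR (quasi-likelihood F test, p-values adjusted by Benjamini-Hochberg over every gene tested, called at an adjusted p under 0.01 and more than 2-fold). The other 23 were not tested because their counts were too low. Of all 17785 genes tested, 10.3% were called up and 2.86% down. The 16 passed the filter on low counts through the Upf3b-KO libraries alone, so that the direction of any member tested was set by the filter, and the share of tested members that was called carries no information. Every Upf3b-KO library lay above every Ctrl library for 20 of the 39 members, among them the untested Hoxa6, Hoxa7, Hoxb7 and Hoxc6. The share was 36.3% of all genes tested, a base that leaves out untested genes, so the 2 shares are not alike. The 16 came from each cluster, with 5 of 11 in A, 6 of 10 in B, 2 of 9 in C and 3 of 9 in D.

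All members that rose belonged to paralog groups 1 to 8. Of the 23 members in groups 1 to 8, 16 rose, and together they held 9201 counts in the 3 Upf3b-KO cerebellar libraries. Of the 16 members in groups 9 to 13, none was tested or called, and together they held 16 counts, with a highest mean of 0.0378 CPM. Within the first range, 7 of 8 members of groups 1 to 3, 8 of 10 of groups 4 to 6 and 1 of 5 of groups 7 and 8 rose.

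Paralog group 5 carried the most Hox RNA in Upf3b-KO cerebellum, at 46.3% of the Hox counts, followed by group 4 at 26.0%, group 3 at 14.2%, group 2 at 6.76%, group 6 at 4.02% and group 1 at 1.44%. By cluster, B held 44.1%, C 23.4%, A 20.8% and D 11.7%. Sums of groups 5 and 2 varied little among the 3 libraries, at 40.7 to 46.5 CPM and 6.32 to 6.42 CPM. The low sums of groups 7 and 8 varied more, at 0.244 to 0.376 CPM and 0.588 to 1.12 CPM.

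Group 5 genes are used in the lower medulla and at the junction with the spinal cord, and Hoxa5 is also known for its part in breathing circuits. Hoxb5 (chromosome 11, 96194162 to 96196947) had the highest level of all members. It had 28.6, 25.7 and 29.9 CPM in Upf3b-KO cerebellum 2, 3 and 4 (819, 907 and 1019 counts) and 5 counts in all 4 Ctrl libraries together. The ratio of its pooled levels was 709 (95% exact interval 304 to 2190), with a log2 fold change of 9.29 ± 0.20 (SE) and an adjusted p of 4.4e-18 by edgeR.

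Hoxa5 had 8.38, 8.85 and 10.1 CPM in the 3 Upf3b-KO libraries and exactly 1 count in each Ctrl library, a ratio of 289 (95% exact interval 112 to 1060). Hoxc5 had 6.77, 6.10 and 6.49 CPM against 4 Ctrl counts in all, a ratio of 203 (79.1 to 749). All 3 members of group 5 thus had every Upf3b-KO library far above every Ctrl library. The annotated exons of Hoxc5 share 166 bases with Hoxc10 on the same strand, and Hoxc10 itself had 0 counts.

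Group 4 genes mark the medulla behind their front limit. Hoxc4 (chromosome 15, 102927366 to 102945278) was second among the members, at 16.1, 14.7 and 15.4 CPM in the 3 Upf3b-KO libraries with 1 count in each Ctrl library. Its ratio was 485 (95% exact interval 189 to 1780), with a log2 fold change of 8.71 ± 0.20 (SE) and an adjusted p of 1.17e-17 by edgeR. Hoxa4 had 4.40, 4.68 and 4.20 CPM against a single Ctrl count (ratio 561, interval 100 to 22200), and Hoxb4 had 2.83, 2.21 and 3.23 CPM against 6 Ctrl counts (ratio 57.9, interval 26.3 to 159). Hoxd4 had 1.78, 1.76 and 2.24 CPM and no Ctrl count, which makes it at least 81.4-fold higher when the Ctrl group is set to a floor of 3 counts.

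Group 3 genes shape the hindbrain segments that form motor nuclei and other medullary cell groups. Hoxd3 (chromosome 2, 74542271 to 74578786) had 8.03, 8.33 and 7.93 CPM in the Upf3b-KO libraries and 0 counts in each Ctrl library, at least 341-fold higher over the same floor (log2 fold change 10.99 ± 0.35, SE, adjusted p 1.14e-13 by edgeR). Hoxb3 had 2.78, 2.51 and 3.65 CPM against 3 Ctrl counts (ratio 126, interval 42.6 to 613), and Hoxa3 had 2.51, 2.12 and 2.24 CPM against 1 (ratio 288, interval 51.2 to 11400). The level of Hoxb3 is uncertain because 51.5% of its exonic bases are shared with Hoxb3os on the opposite strand, and Hoxd3 shares 32.5% with Gm28230 on the same strand. The same limit holds for Hoxd4 (38.9% shared with Gm28230 and 13.1% with Hoxd3, same strand), Hoxb6 (30.8% with Hoxb5os, opposite strand) and Hoxb2 (29.7% with Hoxb3os, opposite strand).

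Group 2 genes reach furthest forward in the hindbrain, and Hoxa2 is the member with the most forward limit. Hoxa2 was also the member with the most counts in Ctrl cerebellum after Hoxd1, with 3, 0, 1 and 6 counts in the 4 libraries. It had 2.34, 2.78 and 2.73 CPM in Upf3b-KO cerebellum, a ratio of 33.3 (95% exact interval 17.8 to 70.3). Hoxb2 had 4.08, 3.54 and 3.60 CPM against 1 Ctrl count, a ratio of 470 (83.9 to 18600). Where 1 Ctrl library held most or all of the Ctrl counts, the fitted log2 fold change rose without it, from 4.93 to 5.84 for Hoxa2, 8.27 to 9.92 for Hoxb2 and 8.51 to 10.16 for Hoxa4 (Ctrl cerebellum 4), 7.56 to 9.19 for Hoxa3 (Ctrl cerebellum 3) and 6.72 to 9.55 for Hoxb3 (Ctrl cerebellum 2). For all of these but Hoxa2 the remaining Ctrl libraries were at 0, where the fitted value depends on edgeR's prior count.

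In group 1, Hoxb1, which marks a single hindbrain segment in the embryo, had 0 counts in every library. Hoxd1 showed the smallest change of the 16. It had 4, 1, 3 and 6 counts in the Ctrl libraries and 22, 36 and 24 in the Upf3b-KO libraries, or 0.115 ± 0.0774 CPM (SD, n = 4) and 0.831 ± 0.168 CPM (SD, n = 3). The ratio was 7.57 (95% exact interval 4.26 to 14.4), with a log2 fold change of 2.81 ± 0.49 (SE) and an adjusted p of 6e-05 by edgeR. Its means in Ctrl and Upf3b-KO frontal cortex were 0.0920 and 0.108 CPM, close to that of Ctrl cerebellum.

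Groups 6 to 8 are used mostly in the spinal cord, though not only there. Hoxb6 had 2.83, 2.95 and 3.58 CPM in the Upf3b-KO libraries, at least 132-fold over the floor of Ctrl, and Hoxb8 had 0.977, 0.568 and 0.411 CPM, at least 26.7-fold. Both passed the test. Hoxa6 (18, 18 and 8 counts), Hoxb7 (4, 7 and 9) and Hoxc6 (3, 8 and 9) had no count in any Ctrl cerebellar library but were too low to be tested, and lay at least 18.9-, 8.61- and 8.61-fold above that floor. Hoxd8 had only 3, 1 and 6 counts in Upf3b-KO cerebellum against 1 in Ctrl, and its libraries overlapped between the groups.

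**Figure D2:**
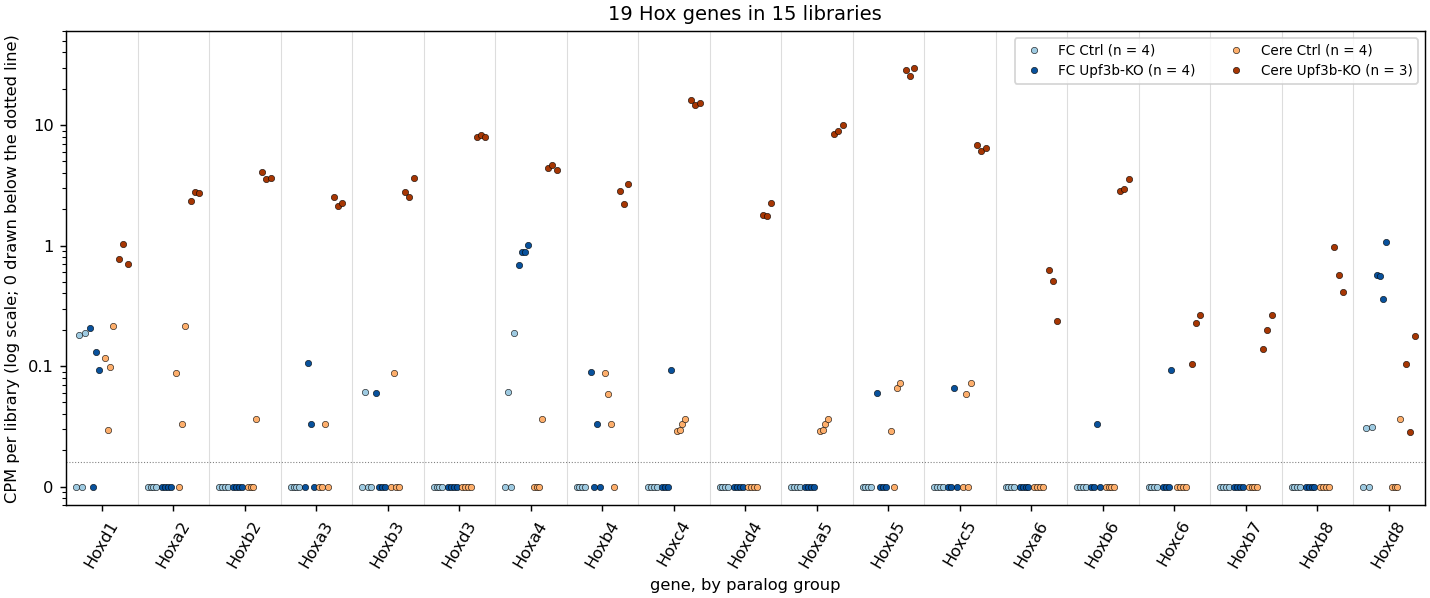
CPM of 19 Hox genes in each of 15 libraries (points, log scale, 0 drawn below the dotted line), with genes ordered by paralog group and colours for the 4 groups. The 3 Upf3b-KO cerebellar libraries lie above every other library for each gene except Hoxd8, where the 4 Upf3b-KO frontal cortex libraries are highest.

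Levels per transcript length were compared as TPM (counts divided by annotated transcript length, then scaled to the library), since CPM favours long transcripts. Hoxb5 led at 35.8 ± 2.77 TPM, then Hoxc4 at 18.8 ± 0.858 and Hoxa5 at 11.8 ± 1.12 TPM (SD, n = 3), and the 3 libraries of each did not overlap with those of the next. Hoxd3 (7.30 TPM) and Hoxa4 (6.74 TPM) overlapped with each other, and so did the run of Hoxb2, Hoxc5, Hoxb3 and Hoxb6, each with its neighbour, from 5.49 to 4.31 TPM. Hoxd4, Hoxb4, Hoxa2 and Hoxa3 formed a further run of overlapping neighbours from 3.02 to 2.17 TPM. Lower still were Hoxa6 (1.27 TPM), Hoxd1 (1.08), Hoxb8 (0.599), Hoxb7 (0.378), Hoxc6 (0.296) and Hoxd8 (0.158). The highest member was that of group 5 in the A and B clusters and that of group 4 in the C cluster, while the D cluster, which has no member in groups 5 to 7, was highest at group 3.

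**Figure D3:**
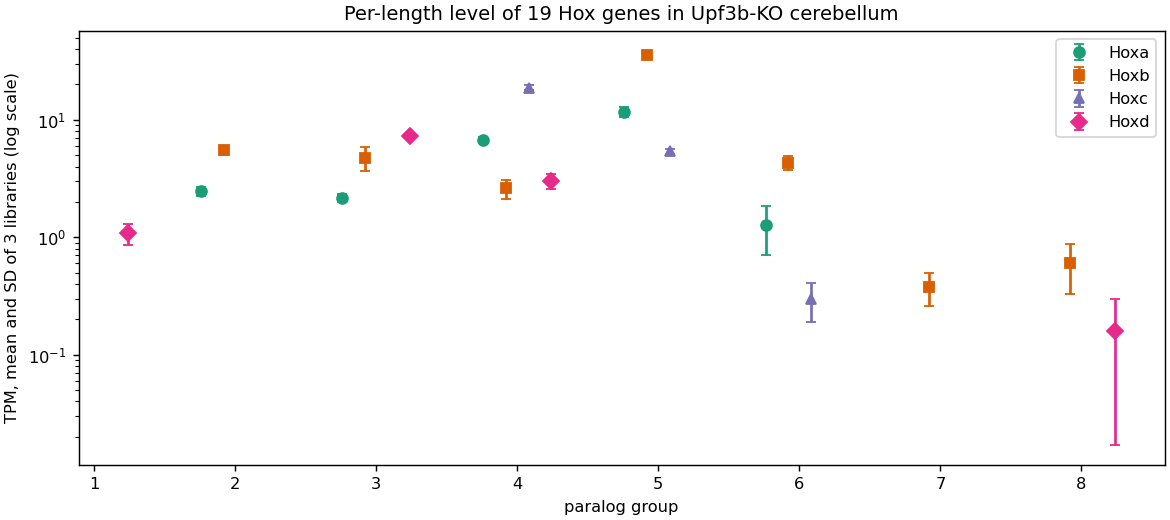
TPM (mean and SD of 3 libraries, log scale) of 19 Hox genes in Upf3b-KO cerebellum by paralog group, with a colour and symbol for each cluster. Hoxb5 is highest at 35.8 TPM, and the members of groups 7 and 8 lie below 1 TPM.

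In frontal cortex, only 2 members had counts high enough to test between Upf3b-KO and Ctrl, Hoxa4 and Hoxd8, and both rose by edgeR's test, where 9.16% of 18218 genes were called up and 1.06% down. The other 37 members were not tested. As in cerebellum, both passed the filter through the Upf3b-KO libraries alone, which set their direction. The 4 Upf3b-KO libraries lay above the 4 Ctrl libraries for 2 members, these same genes, and for 33.1% of all genes tested.

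Hoxa4 had 0, 2, 0 and 6 counts in Ctrl frontal cortex and 23, 27, 27 and 33 in Upf3b-KO frontal cortex. All 4 Upf3b-KO libraries were higher than all Ctrl libraries, at 0.869 ± 0.137 CPM against 0.0617 ± 0.0878 CPM (SD, n = 4 each). The ratio was 14.4 (95% exact interval 7.06 to 34.2), with a log2 fold change of 3.69 ± 0.59 (SE) and an adjusted p of 1.7e-05 by edgeR. Ctrl library 4 held 6 of the 8 Ctrl counts, and without it the log2 fold change was 5.13. Its exons share 255 bases with Gm29430 on the opposite strand, which had 0 counts in frontal cortex.

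Hoxd8 (chromosome 2, 74534959 to 74538297) had 0, 1, 0 and 1 counts in Ctrl frontal cortex and 19, 17, 11 and 35 in Upf3b-KO frontal cortex. At 0.641 ± 0.307 CPM (SD, n = 4), Upf3b-KO library 4 was the highest, and no library overlapped with Ctrl. The ratio was 43.0 (95% exact interval 11.5 to 361), with a log2 fold change of 5.03 ± 0.73 (SE) and an adjusted p of 5e-06 by edgeR.

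The antisense RNA Hoxd3os1 shares 443 exonic bases with Hoxd8. It had 28, 41, 28 and 56 counts in the Upf3b-KO frontal cortex libraries and 5 in the 4 Ctrl libraries together, and rose by a log2 fold change of 4.80 ± 0.57 (SE, adjusted p 2.73e-07 by edgeR). It too passed the filter through the Upf3b-KO libraries alone, which set its direction. In Upf3b-KO cerebellum it had only 8 counts. Whether reads were counted by strand was not stated, so the reads of this pair cannot be told apart where they overlap. The rest of the Hox RNA in Upf3b-KO frontal cortex was sparse. Hoxd1 had 7, 0, 4 and 3 counts against 0, 6, 0 and 6 in Ctrl, a ratio of 1.22 (95% exact interval 0.525 to 2.89), and the other 14 members with a count had 1 to 8 each.

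**Figure D4:**
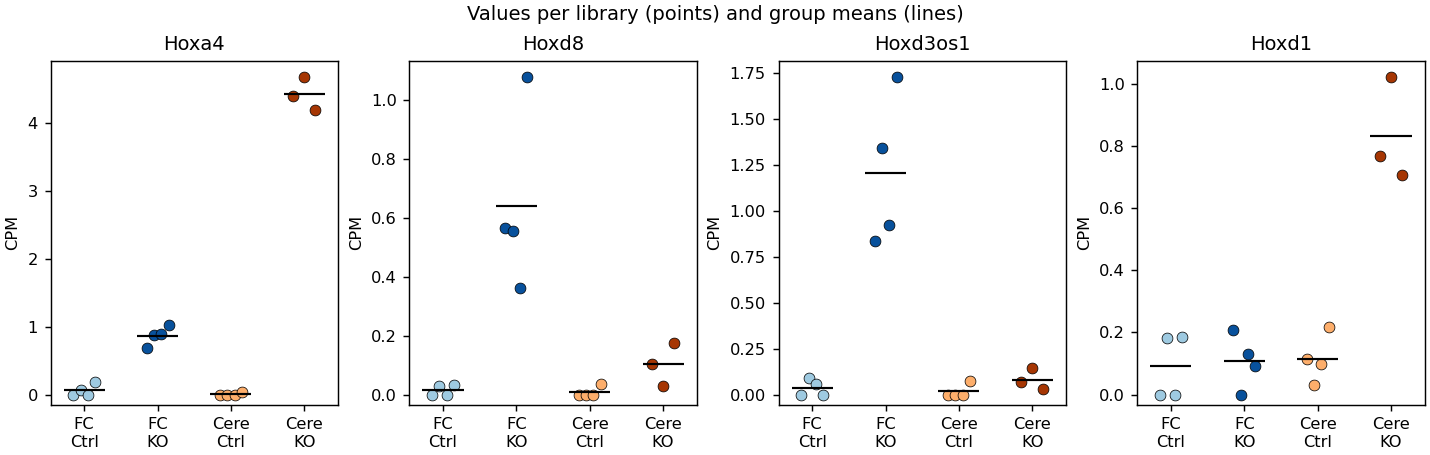
CPM per library (points) and group means (lines) of Hoxa4, Hoxd8, the antisense RNA Hoxd3os1 and Hoxd1 in the 4 groups, each panel with its own linear axis. Hoxd8 and Hoxd3os1 are highest in Upf3b-KO frontal cortex (means 0.641 and 1.21 CPM), and Hoxa4 and Hoxd1 in Upf3b-KO cerebellum (4.43 and 0.831 CPM).

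Between the regions of Ctrl mice, no Hox gene had enough counts to be tested, although 9.18% of all 17521 genes tested were called higher and 15.9% lower in cerebellum. DESeq2 was run without this filter on the 16 members with any count and called 0 of them. Its own filter on low mean counts can withhold an adjusted p, so this is no evidence of equal levels. One edgeR fit of all 15 libraries tested 17 and called 1, Hoxa2, higher in Ctrl cerebellum. Between the regions of Upf3b-KO mice, 17 members were tested, of which 16 were higher in cerebellum and 1, Hoxd8, was lower (log2 difference −2.62 ± 0.59, SE, adjusted p 6.17e-04 by edgeR). The shares of all genes called were 6.92% and 15.7%. Of the 17, 15 passed the filter through the cerebellar libraries alone and Hoxd8 through the frontal cortex libraries alone, so that the direction of these 16 was set by the filter. Without Upf3b-KO cerebellum 4, which held 6 of its 10 cerebellar counts, the difference of Hoxd8 was −3.27. Hoxa4, which reached the minimum count in both regions, was the tested member with the smallest positive difference, at 2.33 ± 0.18 (SE). This comparison and the one within cerebellum share the Upf3b-KO cerebellar libraries.

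Whether the genotype difference itself differed between the regions was tested as an interaction over the 15 libraries. It called 1 of 17 members tested, Hoxa4, whose log2 difference was 4.81 ± 1.2 (SE) larger in cerebellum than in frontal cortex (adjusted p 0.00109 by edgeR), where 6.36% of 19831 genes were called with a positive and 3.04% with a negative value. No Ctrl library reached the minimum of the filter for any of the 17. Of these, 15 reached it in Upf3b-KO cerebellum alone and Hoxd8 in Upf3b-KO frontal cortex alone, which set the sign of their values, so that nothing can be read from those signs. Hoxa4 reached it in both Upf3b-KO groups. Hoxb3 (6.72 ± 2.2, adjusted p 0.0128) and Hoxd1 (2.60 ± 1.1, adjusted p 0.0655) did not pass, nor did Hoxd8 (−1.91 ± 2.5, adjusted p 0.572). For the remaining 13 members at least 1 of the other groups was at 0 in every library, so that edgeR could not estimate the difference. DESeq2 took in 30 members and called 13 with a positive value, Hoxb3 among them (6.93, adjusted p 1.93e-04). These are thus not the same 13 as above. Of 37348 genes it called 1374 with a positive and 721 with a negative value. Groups at 0 limit its values too. The call of Hoxa4 was lost without Ctrl frontal cortex 4, which held 6 of its 8 Ctrl counts (3.37 ± 1.5, adjusted p 0.0688), and that of Hoxb3 was gained without Upf3b-KO frontal cortex 1 (9.02, adjusted p 0.00428) or without Ctrl cerebellum 2, which held its 3 Ctrl counts (9.56, adjusted p 0.00227).

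At the level of transcripts, the 39 genes had 81 annotated transcripts, of which 19 were tested in cerebellum. Upf3b-KO raised 15 of them, from 13 genes, and lowered none, where 3.45% of 44388 transcripts were called up by edgeR. Between 10 and 14 passed when 1 library was left out, the fewest without Upf3b-KO cerebellum 2 or 4. DESeq2 called 23, beside 2749 of 97931 transcripts called up. As with the genes, the transcripts tested had at most 6 counts in any Ctrl library and passed the filter through the Upf3b-KO libraries, so nothing can be read from the share called. In frontal cortex 1 was tested, Hoxa4-201, and it was not called (adjusted p 0.0349 by edgeR, where 2.76% of transcripts were called up). Transcripts annotated as protein_coding held 94.9% of Hox counts in Upf3b-KO cerebellum, those with a retained intron 4.56%, and the 1 transcript annotated as a target of nonsense-mediated decay 0.0217%. Most members had 1 leading transcript, such as Hoxb5-201 with 98.6% of the counts of Hoxb5 and Hoxc4-201 with 97.0% of those of Hoxc4. Hoxd3 differed, with 46.5% of its counts on Hoxd3-206, which is annotated with a retained intron and rose (log2 fold change 9.91, adjusted p 5.6e-04 by edgeR), and 33.9% and 18.2% on Hoxd3-202 and Hoxd3-203.

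Other RNAs transcribed within the clusters also rose in cerebellum. Hoxb3os had 174, 173 and 102 counts in the Upf3b-KO libraries and 3 in Ctrl (log2 fold change 7.35 ± 0.47, SE), Hoxaas2 rose by 5.74 ± 0.46, Haglr by 4.31 ± 0.34 and Hotairm1 by 4.23 ± 0.39, and the highest of their adjusted p-values was 1.57e-08 in edgeR. These were the 4 tested of 45 further genes annotated inside the clusters, nearly all non-coding, and they too passed the filter through the Upf3b-KO libraries alone, which set their direction. The microRNA genes Mir10a, Mir10b, Mir196a-1, Mir196a-2, Mir196b and Mir615 and the RNA Hotair were listed at 0 in all libraries used.

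Of the 8 nearest protein-coding neighbours of the clusters, 7 were tested in cerebellum, 3 rose and none fell. The 3 that rose, Evx1, Evx2 and Skap1, had 0, 10 and 9 counts over the 4 Ctrl libraries, and passed the filter through the Upf3b-KO libraries alone, which set their direction, so nothing can be read from the share called. Evx1, a homeobox gene of spinal interneurons next to Hoxa13, had 82 counts in Upf3b-KO cerebellum (0.827 CPM) and 0 in each other group, and Evx2, its counterpart beside Hoxd13, rose from 0.0873 to 0.620 CPM. Skap1 rose from 0.0692 to 1.47 CPM. The broadly expressed neighbours Skap2, Mtx2, Calcoco1 and Smug1 stayed within 2-fold, with log2 fold changes of 0.58, 0.36, 0.18 and −0.32. Hoxa13 and Hoxd13, which lie between Evx genes and the rest of their clusters, had 0 and 2 counts in Upf3b-KO cerebellum.

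Hox proteins bind DNA together with cofactors of the Pbx, Meis and Pknox families. Of the 9 cofactor genes, 2 rose in Upf3b-KO cerebellum and none fell. This count and those of the next lists stand beside 10.3% of all genes called up and 2.86% called down there, and 9.16% and 1.06% in frontal cortex, and no difference from those shares was tested. List genes that no Ctrl library brought to the minimum of the filter entered the test through the Upf3b-KO libraries, which set their direction, and they are pointed out with each list. Meis2 rose from 2.26 ± 0.402 CPM (SD, n = 4) to 63.4 ± 2.43 CPM (SD, n = 3), a log2 fold change of 4.75 ± 0.076 (SE, adjusted p 6.45e-20 by edgeR), and Pbx4 from 2.15 to 5.62 CPM. Meis1 (59.4 to 42.2 CPM) and the other 6 moved by less than 2-fold. In frontal cortex, where Meis2 was at 100 CPM in Ctrl and 114 CPM in Upf3b-KO, 0 of the 9 passed.

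Of 11 regulators of hindbrain segments and of the midbrain-hindbrain border, 6 were tested in cerebellum, 2 rose and none fell. Gbx2, which sets the front border of the hindbrain, rose from 1 count in Ctrl to 1.90 ± 0.452 CPM (SD, n = 3) and passed the filter through Upf3b-KO alone. The cerebellar genes En1 (4.19 to 2.35 CPM) and En2 (30.4 to 18.1 CPM) did not pass the 2-fold limit, and Cdx1, Cdx2 and Cdx4, activators of Hox genes in the embryo, were at or near 0 in all groups. In frontal cortex Otx2 (0.0384 to 9.75 CPM), which choroid plexus also expresses, and Egr2 rose among 4 tested, and Otx2 passed the filter through Upf3b-KO alone.

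Retinoic acid switches on Hox genes in the embryonic hindbrain. Of 16 genes of its pathway, 14 were tested in cerebellum, where Crabp1 (0 to 1.45 CPM), Rxrg (0.603 to 2.17 CPM) and Rxra (6.03 to 16.5 CPM) rose and none fell, Crabp1 having passed the filter through Upf3b-KO alone. In frontal cortex 4 of 15 tested rose (Crabp1, Rxrg, Rarb and Cyp26b1) and none fell, beside 9.16% and 1.06% of all genes. Of 17 Polycomb and Trithorax genes, which hold Hox genes silent or active, all 17 were tested and none passed, with a median log2 fold change of −0.39 against 0.008 over all genes. Among them, Kmt2a was at 54.9 CPM in Ctrl and 47.9 CPM in Upf3b-KO, Ezh2 at 6.89 and 5.40 CPM, and Cbx7 at 92.8 and 48.8 CPM.

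Markers of other cell types moved with the Hox genes. Of 14 genes of brainstem neurons, 13 were tested in cerebellum, 12 rose and none fell, and their summed level went from 46.1 to 48.2 CPM in the Ctrl libraries to 468 to 477 CPM in the Upf3b-KO libraries. Of the 13, 7 passed the filter through Upf3b-KO alone (all 7 rose, Slc6a2 and Chat among them), and of the other 6, 5 rose. Slc6a2, the noradrenaline transporter, rose from 0.0528 to 14.8 CPM, Chat, the acetylcholine-synthesising enzyme, from 0 to 13.6 CPM, and Slc6a5, the glycine transporter, from 35.0 to 176 CPM. In the same libraries 4 of 8 cerebellar genes fell and none rose, where 2.86% of all genes fell, from a sum of 9110 to 9250 CPM to one of 3880 to 3890 CPM, with Pcp2 of Purkinje cells at 385 CPM in Ctrl and 147 CPM in Upf3b-KO. Oligodendrocyte genes rose for 4 of 6 (sum 5710 to 5800 CPM in Ctrl and 13560 to 13690 CPM in Upf3b-KO).

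Choroid plexus genes rose for 6 of 6 in cerebellum, from a sum of 25.0 to 28.8 CPM to one of 1369 to 1391 CPM, 1 of them having passed the filter through Upf3b-KO alone. They also rose for 6 of 6 in frontal cortex, from 20.8 to 22.1 CPM to 2156 to 2209 CPM, where summed Hox RNA was 0.0290 to 0.515 CPM in Ctrl and 1.68 to 2.53 CPM in Upf3b-KO. The brainstem genes had 32.7 to 33.5 CPM in Ctrl and 36.6 to 42.7 CPM in Upf3b-KO frontal cortex, with 3 of 7 tested up (Chat, Slc18a3 and Slc5a7) and 1 down (Calca). Of the 7, only Dbh passed the filter through Upf3b-KO alone, and it was not called (0.188 to 0.481 CPM). Male germ cell genes rose for 8 of 8 in frontal cortex (25.2 to 29.4 CPM in Ctrl and 204 to 216 CPM in Upf3b-KO), and in cerebellum 6 of 7 rose and 1, Sycp1, fell from 28.4 to 9.53 CPM, which took the list from a sum of 28.3 to 30.8 CPM to one of 21.9 to 23.3 CPM. In cerebellum 4 of these 6 passed the filter through Upf3b-KO alone. Of 3 forebrain genes tested in cerebellum 1 rose (Lhx2, 0 to 0.968 CPM), and of 4 genes of thalamus and midbrain 2 rose (Lhx9, 0.511 to 1.95 CPM, and Pou4f1, 0.0829 to 0.958 CPM), Lhx2 and Pou4f1 through Upf3b-KO alone, while 0 of 7 meningeal, 0 of 4 endothelial and 0 of 5 red cell genes were called there. The red cell sum was nonetheless 1255 to 1325 CPM in Ctrl and 2402 to 2451 CPM in Upf3b-KO cerebellum, and all 5 of its genes were called in the interaction. Meningeal sums in cerebellum were 87.1 to 93.2 CPM in Ctrl and 66.7 to 72.6 CPM in Upf3b-KO. Endothelial sums there were 66.7 to 71.45 CPM and 78.3 to 83.5 CPM, and neither list overlapped between the genotypes. In frontal cortex the meningeal sum was 129.9 to 137.3 CPM in Ctrl and 66.2 to 74.1 CPM in Upf3b-KO, without overlap, and 1 of its 7 genes fell (Dcn, 72.7 to 25.6 CPM). The oligodendrocyte sum there was 7269 to 7330 CPM in Ctrl and 9742 to 9807 CPM in Upf3b-KO, again without overlap, with 0 of 6 genes called. In that region 0 of 4 endothelial and 0 of 5 red cell genes were called, at sums of 82.8 to 88.1 and 489.1 to 503.9 CPM in Ctrl and 98.1 to 101.3 and 422.2 to 433 CPM in Upf3b-KO. The part that the cell makeup of the samples had in the Hox results was not tested.

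**Figure D5:**
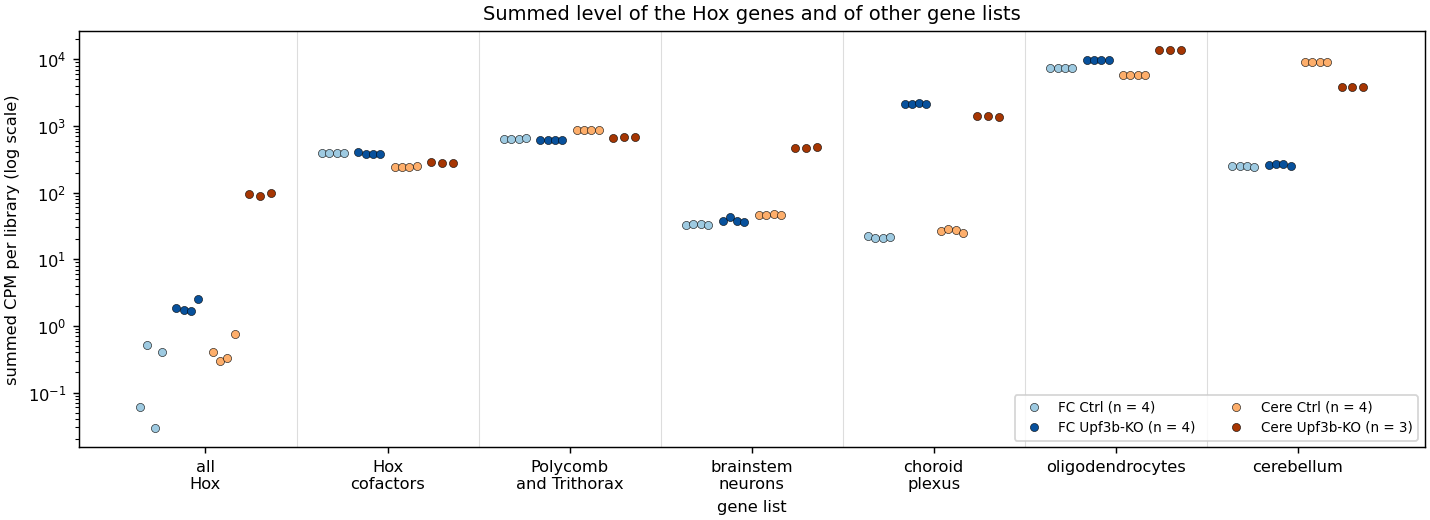
Summed CPM per library (points, log scale) of the 39 Hox genes and of 6 other gene lists in the 4 groups. Hox and brainstem sums stand apart in Upf3b-KO cerebellum (89.6 to 98.1 and 468 to 477 CPM), and choroid plexus sums in Upf3b-KO libraries of both regions. Polycomb and Trithorax sums are 856 to 869 CPM in Ctrl and 652 to 680 CPM in Upf3b-KO cerebellum.

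The shallow library, Upf3b-KO cerebellum 1, had 0 Hox counts of 64981, which allows a level of up to 46.2 CPM, where the other Upf3b-KO cerebellar libraries had 89.6 to 98.1 CPM and would have given 6.12 counts at this depth. With it included, no Hox gene passed edgeR's filter, which then asks for 10 counts in 4 libraries. Without the filter 19 rose, beside 2470 of 34147 genes. DESeq2 called 13 higher, beside 823 of 34147 genes, and its median log2 fold change over all genes was then 0.996. The brainstem neuron genes of the shallow library had 30 counts, or 462 CPM (95% exact Poisson interval 311 to 659), and its choroid plexus genes 98 counts, or 1510 CPM (1220 to 1840), both close to the other Upf3b-KO libraries. The intervals of its cerebellar (3010 to 3930 CPM) and oligodendrocyte genes (12400 to 14200 CPM) also took in those libraries. Its Polycomb and Trithorax genes went the other way, at 923 CPM (704 to 1190). The other Upf3b-KO cerebellar libraries had 652 to 680 CPM and the Ctrl ones 856 to 869 CPM. The libraries carried no molecular identifiers, so the floors and intervals given here measure counting error and nothing else.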

How the data were processed

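RNA was measured in 16 libraries of mouse brain. The study's methods and the labels give column extraction of total RNA, ribosomal RNA depletion, SMART-Seq v4 PLUS libraries and pair-end sequencing. Tools named in the submitters' processing notes are STAR 2.5.2b, Subread, featureCounts, RSEM and DESeq2, with build GRCm39. The authors deposited expected counts per Ensembl transcript, estimated by RSEM and not scaled for depth, in 1 matrix for each region. RSEM divides reads that match several transcripts by probability, so that paralogs and overlapping genes can share reads. Whether strand was used in counting was not given in the sources used here. Authors' pipelines and annotation can move the level of overlapping genes.

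Of 142435 transcripts, 141102 matched the GENCODE vM39 annotation and were summed to 55266 genes, and the 1333 without a match were left out. Expected counts were rounded to whole numbers and tested with edgeR 4.0.16 (R 4.3.3, limma 3.58.1), with filterByExpr at a minimum count of 10 and a minimum total of 15, TMM scaling, the quasi-likelihood F test and Benjamini-Hochberg adjustment over all genes or transcripts tested. A gene was called at an adjusted p under 0.01 and over 2-fold. Standard errors came from the F statistic (absolute log2 value over its square root). CPM used the total of each library, TPM the annotated transcript lengths, and ratios of pooled counts an exact conditional binomial 95% interval. DESeq2 1.42.0 was an alternative. The fits were tested on simulated data, with changes set only in genes of higher mean counts. That test does not cover the Hox genes, whose Ctrl counts were at or near 0.

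Members and lists were chosen with earlier results of these data known. Values per library are given for the 20 members with the highest mean CPM over 15 libraries among those with at least 10 counts in a group, except 1 that is not reported here, and a few genes of the other lists are likewise left out by name. Nothing in the labels says which libraries share a mouse across regions. Samples with the same replicate number did not deviate together, so no pairing was used. No 2 libraries of a group were alike within counting noise. Alternatives were other scaling, filters, thresholds, tools and fits, unrounded counts, a replicate block, the shallow library and leaving out each library.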

Additional observations from a re-analysis of the deposited data

Results flagged for a closer look

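Among 56 groups of 4 libraries checked for a library far from the other 3, 3 groups had one, where chance gives about 1 in 20. Haglr, the antisense RNA of the D cluster, had 0.181 CPM in Ctrl cerebellum 4 and 0.0868 to 0.0991 CPM in the other 3 Ctrl cerebellar libraries. The summed level of the Hox cofactors was 401.2 CPM in Upf3b-KO frontal cortex 1 and 381.8 to 384.1 CPM in the other 3. The summed level of the thalamus and midbrain genes was 23.9 CPM in Upf3b-KO frontal cortex 3 and 27.1 to 27.7 CPM in the other 3.

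The genotype difference of Hoxa4 differed between the regions, being larger in cerebellum by 4.81 on the log2 scale (edgeR interaction test, adjusted p 0.00109). The cause was not tested, and the call rests on Ctrl frontal cortex 4, without which the value was 3.37 (adjusted p 0.0688).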

How the results depend on the processing

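Of 1032 values recomputed under an alternative, 965 kept their direction and their side of the threshold (for counts and levels, stayed near the reported value), 37 no longer passed, 15 newly passed, 15 moved and 0 reversed. Most of these values belong to Hox genes and transcripts that passed the filter through 1 group alone. Their direction was set by the filter, so that 0 reversed carries no information for them. Interaction values that edgeR could not estimate were left out. Hox genes called in cerebellum numbered 16 to 17 when 1 library was left out, 13 to 19 under the other alternatives that tested any member, and in frontal cortex 2 throughout. Between regions, 16 higher and 1 lower in Upf3b-KO became 1 and 1 (2 in all) when the shallow library was included, since only 2 members then passed the filter, and were 17 to 18 in all leaving out 1 library. In Ctrl, all 15 libraries in one fit called 1 member of 17 tested, Hoxa2, where the fit of the 2 groups tested none. The interaction called 13 members by DESeq2, 2 with no filter, 2 at the looser threshold (adjusted p under 0.05 and any fold), and 0 to 2 leaving out 1 library. Hox transcripts called in cerebellum numbered 23 by DESeq2 and 10 to 14 leaving out 1 library, and in frontal cortex 2 by DESeq2 and 1 at the looser threshold. With the replicate number as a block, 3 Hox transcripts were called in cerebellum in place of 15, and the block changed no count of Hox genes called. Same-numbered libraries correlated at −0.042 to 0.104, so the numbers do not pair the samples. Summed Hox CPM in Upf3b-KO cerebellum was 102.2 over totals without the 20 most abundant genes, 89.4 over protein_coding transcripts only, 70.7 with the shallow library, and 92.3 to 96.5 leaving out 1 library. It was 0.164 to 0.326 CPM in Ctrl frontal cortex, 1.75 to 2.04 in Upf3b-KO frontal cortex and 0.343 to 0.498 in Ctrl cerebellum leaving out 1 library. Causes of these moves were not tested beyond the number of members a filter let through.

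With the shallow library included, no Hox gene or transcript passed the filter in cerebellum, and with a minimum count of 30 none passed in frontal cortex, so these gave no value. Including it with no filter or with DESeq2 was chosen after seeing the data, and DESeq2 then moved the median log2 fold change of all genes in cerebellum to 0.996 and between regions of Upf3b-KO mice to 0.403, did not call Hoxd1 in cerebellum or Hoxb8, Hoxd1 and Hoxd8 between the regions, and gave no adjusted p for Hoxb8 in cerebellum. Levels under 0.085 CPM lie below 3 counts in every library, which limits what can be said of paralog groups 9 to 13 and of Ctrl samples.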
